A study of Mus musculus with 10 samples.

Results

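Genes that mark the pluripotent state were described in F123 mouse embryonic stem cells (mESCs) through the H3K4me3 ChIP-seq peaks and the ATAC-seq peaks called at and around them. They were taken by name from the mm10 GENCODE annotation, as Dppa2, Dppa3, Dppa4, Dppa5a, Gdf3, Zfp42, Tdgf1, Utf1 and Fbxo15, and are 9 of the 21938 protein-coding genes on chromosomes 1 to 19, X and Y. F123 is a line from an F1 cross of Mus musculus castaneus and S129/SvJae, so that each autosome comes in a castaneus copy and a S129/SvJae copy. The cells grew with LIF and knockout serum replacement on irradiated CF1 mouse embryonic fibroblast feeders and were passaged on gelatin without feeders before harvest. No treatment or genotype was compared. H3K4me3 ChIP-seq and ATAC-seq were each done in 2 replicates, and each assay was deposited as 1 list of peaks that stands for both, with no read counts. The depth is therefore unknown, no value below has a spread between replicates, and the comparisons between genes are descriptions without a test.

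H3K4me3 is the trimethylation of lysine 4 on histone H3. It is laid down around the starts of active or poised genes, chiefly where the DNA is rich in CpG dinucleotides, and broad domains of it are known at genes that define a cell's identity. ATAC-seq reads DNA that the Tn5 transposase can reach, which includes promoters and enhancers. The 9 genes are widely used to recognise undifferentiated cells, and most of them are silenced when the cells leave pluripotency. Zfp42, also called Rex1, and Utf1 encode nuclear proteins. Gdf3 is a ligand of the TGF-beta family and Tdgf1, also called Cripto, is a co-receptor of Nodal signalling. Dppa3, also called Stella or PGC7, is a maternal factor that protects the early embryo's DNA methylation. Dppa2 and Dppa4 encode paired SAP-domain proteins that bind chromatin together, Dppa5a encodes a KH-domain protein of the early embryo and germ line, and Fbxo15 encodes an F-box protein and is a known target of Oct4 and Sox2.

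All 9 genes carried an H3K4me3 peak within 1 Kb of the annotated start, as did 65.2% of all protein-coding genes. All 9 also carried an ATAC-seq peak there, which 71% of the genes did, and 64.4% had both. A peak of either kind at the start was thus shared with most genes. What varied among the 9 was the form of the H3K4me3 peak, which was from 279 to 5808 bp wide. Dppa3-ps, Dppa5b, Dppa5c, Tdgf1-ps1, Tdgf1-ps2 and Zfp42-ps1, annotated pseudogene copies of 4 of the genes, held 0 H3K4me3 peaks at their starts or in their bodies. Dppa5c alone held 1 ATAC-seq peak. How reads shared by a gene and its copies were counted is not given in the sources used here.

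**Figure D1:**
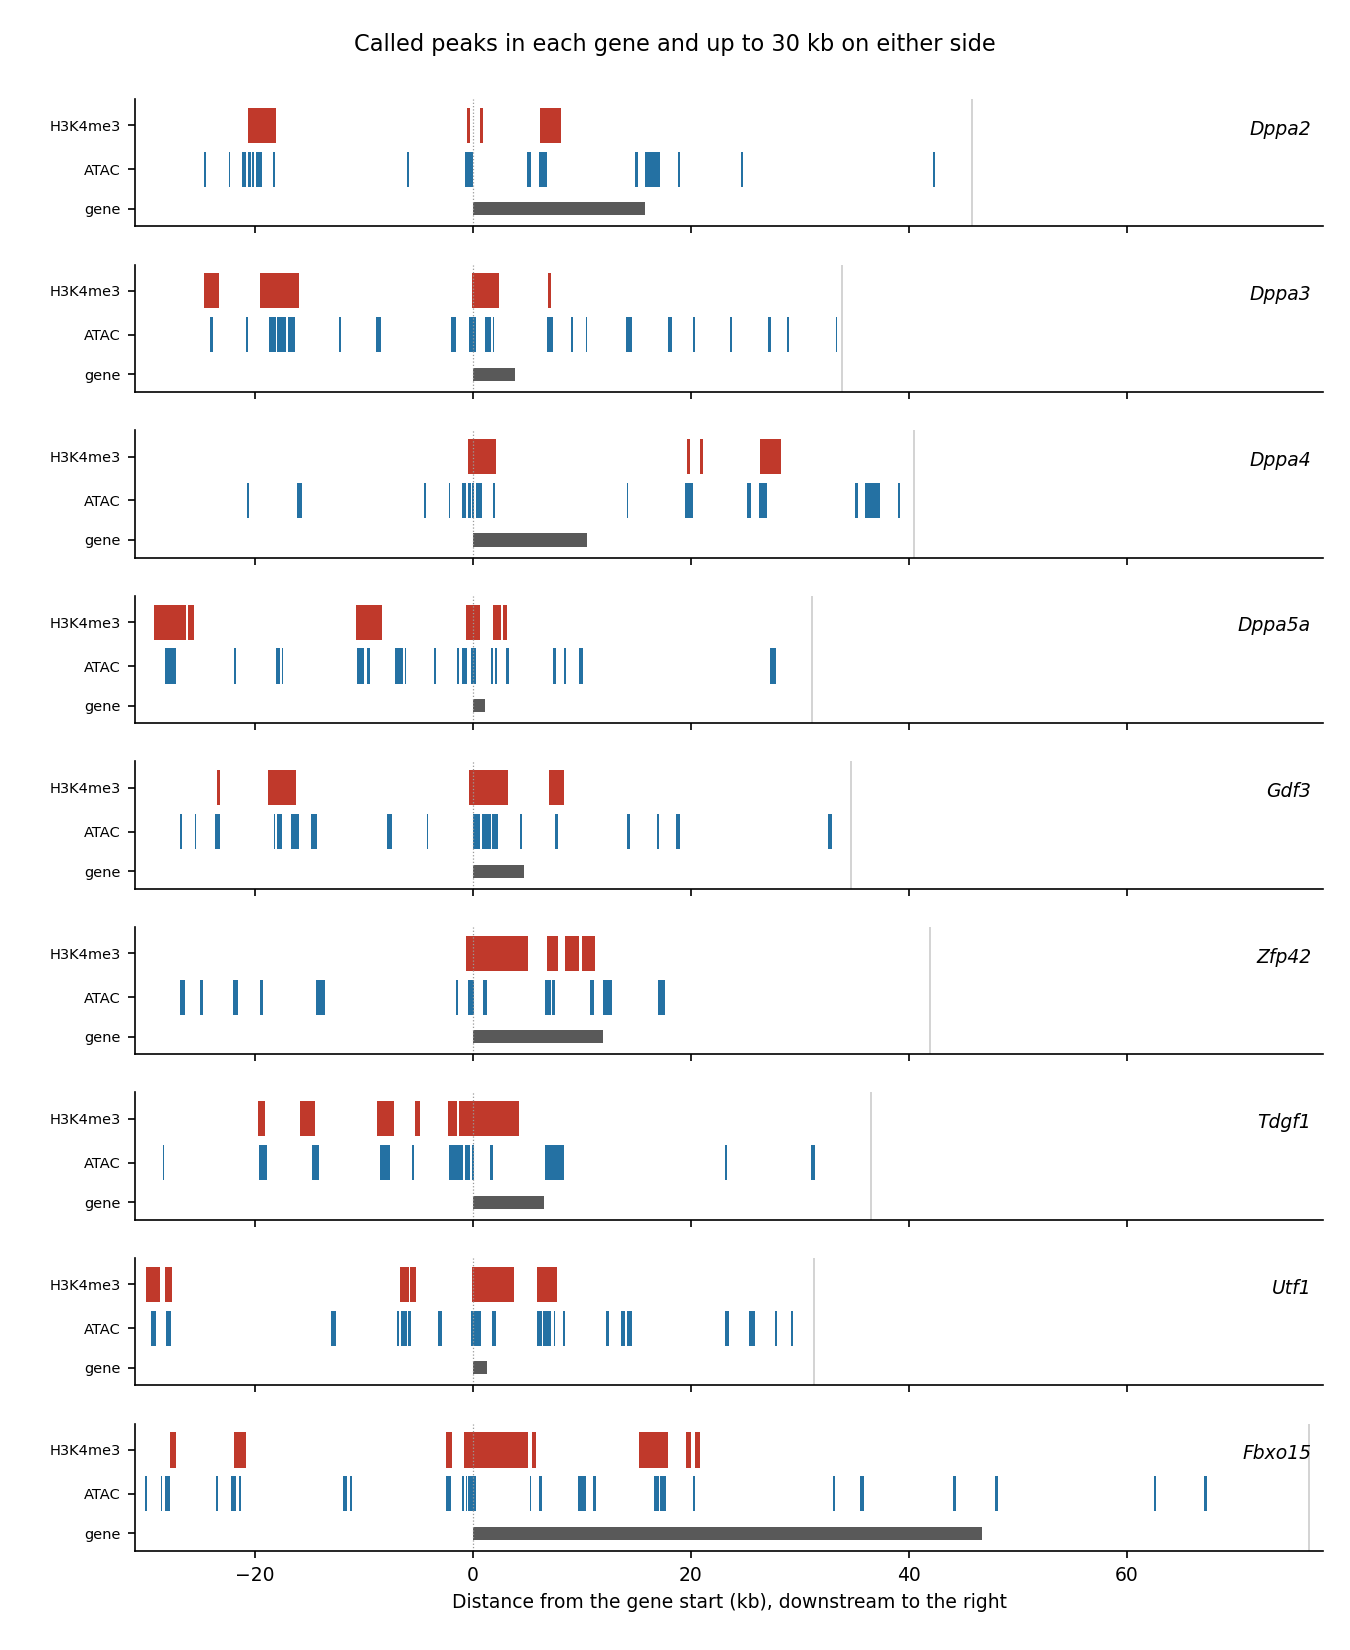
Called H3K4me3 peaks (red) and ATAC-seq peaks (blue) in each gene (grey bar) and up to 30 Kb on either side, by distance from the gene start in Kb with the direction of transcription to the right. The grey vertical line is the end of the window. Every gene has both kinds of peak at its start, and the H3K4me3 peaks of Fbxo15, Zfp42 and Tdgf1 run over 4 Kb into the gene.

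The widest start peaks belonged to Fbxo15, Zfp42 and Tdgf1. The Fbxo15 peak was 5808 bp wide and ranked 191 of the 33487 peaks of the list by width. The Zfp42 peak was 5764 bp wide, at rank 202, and the Tdgf1 peak was 5526 bp wide, at rank 250. These 3 peaks were among the 413 of the list that reached 5 Kb. Utf1 followed with 3915 bp, at rank 1227, and Gdf3 with 3626 bp, at rank 1638. These 5 of 9 genes lay in the widest 10% of the list, with peaks of at least 2946 bp, against 23.3% of the 14295 genes that had a start peak.

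Dppa4 and Dppa3 lay in the middle of the range. Their peaks were 2575 bp and 2508 bp wide, at ranks 4934 and 5303, and were wider than those of 66.2% and 63.7% of the genes with a start peak. The Dppa5a peak, with 1274 bp at rank 15343, was wider than the start peaks of 13.7% of those genes. Dppa2 had the narrowest, at 279 bp and rank 32767. The median over the 9 genes was 3626 bp, against 2165 bp over all genes with a start peak, and 7 of the 9 genes were above that value.

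The height of the peaks was low beside that of other genes. The fold enrichment, which is the authors' ratio of signal to the background of the peak caller, was 26.4 for Tdgf1, 24.6 for Zfp42, 23.5 for Utf1, 20.3 for Gdf3, 16.7 for Dppa4, 15.6 for Fbxo15, 13.1 for Dppa3, 9.74 for Dppa5a and 3.19 for Dppa2. The median was 16.7, against 30.6 over all genes with a start peak, and 9 of the 9 genes were below that value. None of the 9 exceeded 27.1, the 75th percentile of the list, which 59.5% of the genes with a start peak did. The authors' −log10 q values gave the same picture, from 5.28 for Dppa2 to 430 for Utf1, with 9 of 9 genes below the gene median of 447.

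**Figure D2:**
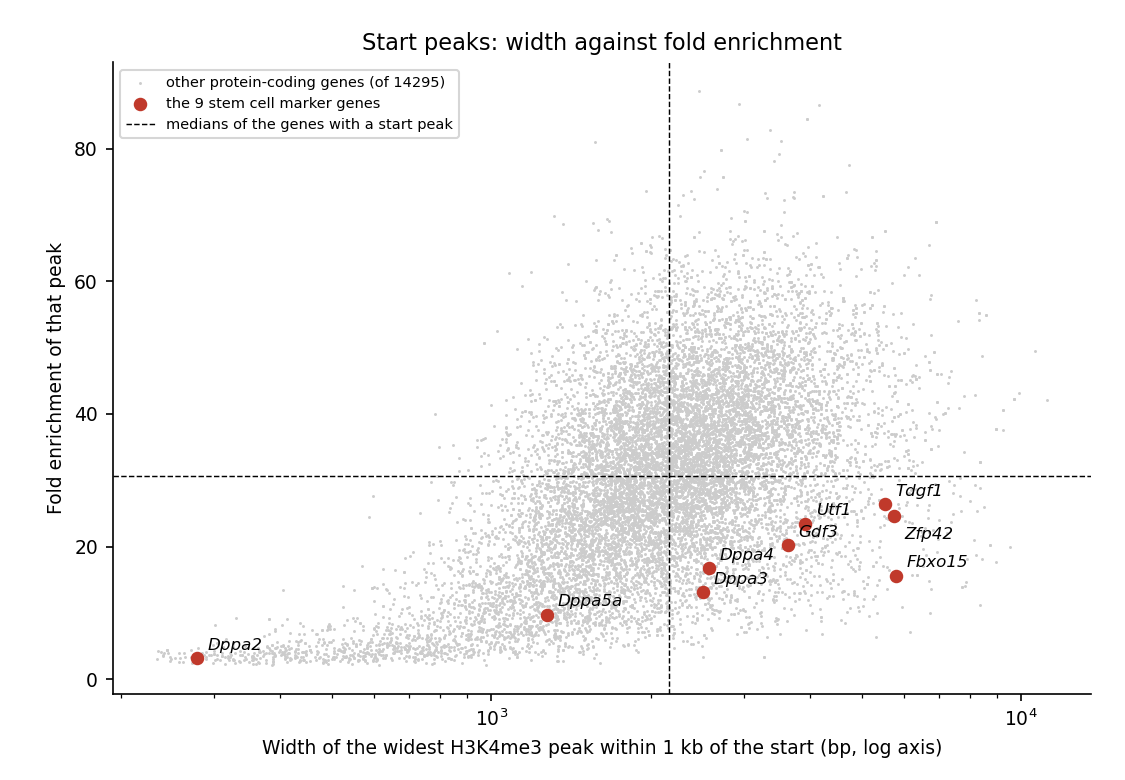
Width in bp (log axis) against fold enrichment of the widest H3K4me3 peak within 1 Kb of the start, for the 9 genes (red) and the other genes with such a peak (grey, 14295 genes in all). Dashed lines are the medians, 2165 bp and 30.6, and all 9 genes lie below the horizontal line, with 7 to the right of the vertical line.

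The fold was also low for the width. Each gene was set beside the genes whose start peak was within 10% of its own width. Fbxo15 stood lowest among the widest peaks, with a fold of 15.6 against a median of 37.8 over 222 such genes, of which 4.50% were lower. Zfp42 had 13.4% of 231 such genes below it, and Tdgf1 had 19.5% of 256. Dppa3, with 3.14% of 2548 such genes below it, was the lowest for its width among the 9. Dppa4 and Gdf3 had 6.15% and 8.69% below them, and Dppa5a and Utf1 14.1% and 14.2%. The gene nearest to its peers was Dppa2, with a fold of 3.19 against a median of 3.39 over 37 genes.

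The DNA at the starts was poor in CpG for genes that carry the mark. The ratio of observed to expected CpG in the 1 Kb centred on the start was 0.22 for Fbxo15, 0.24 for Dppa2, 0.37 for Gdf3, 0.39 for Dppa4, 0.44 for both Dppa5a and Dppa3, 0.50 for Zfp42, 0.60 for Tdgf1 and 0.80 for Utf1. Its median was 0.71 over the genes with an H3K4me3 start peak and 0.17 over the 7643 genes without one. Of the 9 genes, 8 lay below the median of the genes with a peak, Utf1 being the exception, and 9 lay above the median of the genes without. The Dppa2 ratio is that of a gene start that no H3K4me3 peak covered. The ratio at its other annotated start, which a peak did cover, was not measured. Fbxo15 was the extreme case, since the 412 genes with a start peak of at least 5 Kb had a median ratio of 0.80, and 1.46% of them were below Fbxo15.

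**Figure D3:**
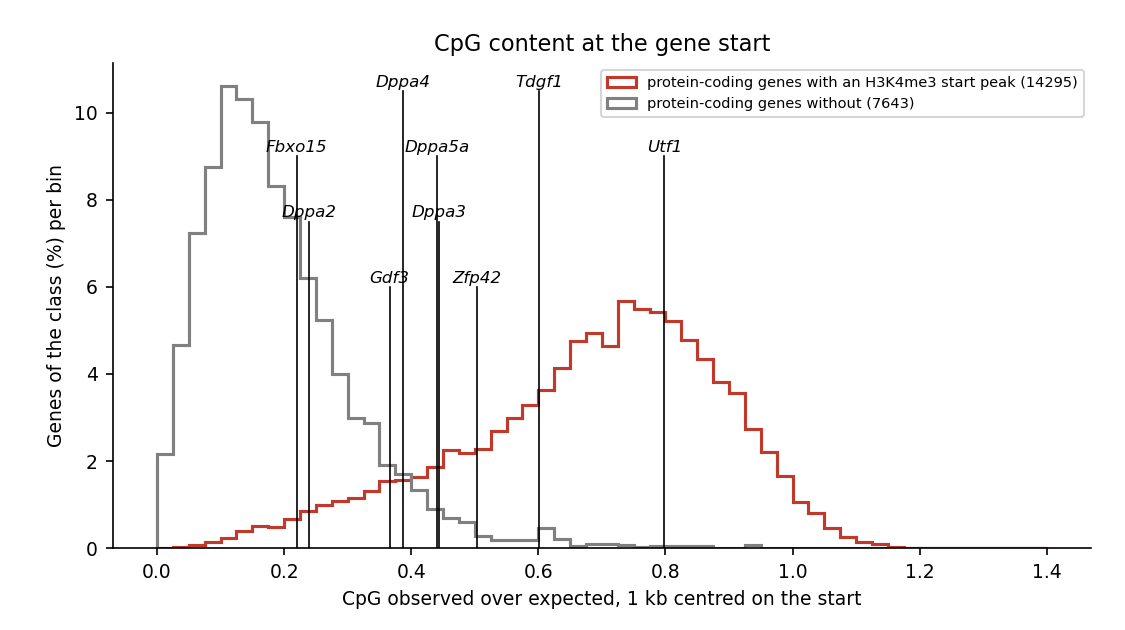
Distribution of the observed over expected CpG ratio in the 1 Kb centred on the gene start, as a percentage of genes per bin, for protein-coding genes with (red) and without (grey) an H3K4me3 start peak, with the 9 genes as vertical lines whose heights only separate the names. Fbxo15 and Dppa2 lie within the bulk of the genes without a peak and Utf1 within that of the genes with one.

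The 9 genes were also read against genes of like CpG content. Among genes with a ratio under 0.25, 7.66% had a start peak, with a median width of 1282 bp and a median fold of 8.18, and 12 of these 480 genes, Fbxo15 included, reached 5 Kb. Between 0.25 and 0.5, where Dppa3, Dppa4, Dppa5a and Gdf3 fall, 56.7% had a start peak, with medians of 1415 bp and 14.4. Between 0.5 and 0.75, where Zfp42 and Tdgf1 fall, 97.5% did, with medians of 1986 bp and 28.2. Above 0.75, in the class of Utf1, 99.6% did, with medians of 2582 bp and 37.8. The start peak was wider than the median of its own class for 7 of the 9 genes, Dppa2 and Dppa5a being the exceptions. The fold was above the class median for 3 of the 9, namely Fbxo15, Dppa4 and Gdf3, and below it for the other 6. The class limits were set after the CpG values had been seen, and whether CpG content accounts for the low folds was not tested.

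The start peaks lay mostly downstream of the start. The Zfp42 peak reached 672 bp upstream and 5091 bp downstream, the Fbxo15 peak 781 and 5026 bp, and the Tdgf1 peak 1248 and 4277 bp. Of the 8 genes whose start was covered by the peak, 7 had the longer arm downstream, and so did 83.7% of the 13275 genes covered in this way. Dppa5a was the exception, with 657 bp upstream and 616 bp downstream. The summit lay 91 bp (Dppa5a) to 942 bp (Tdgf1) downstream of these 8 starts.

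**Figure D4:**
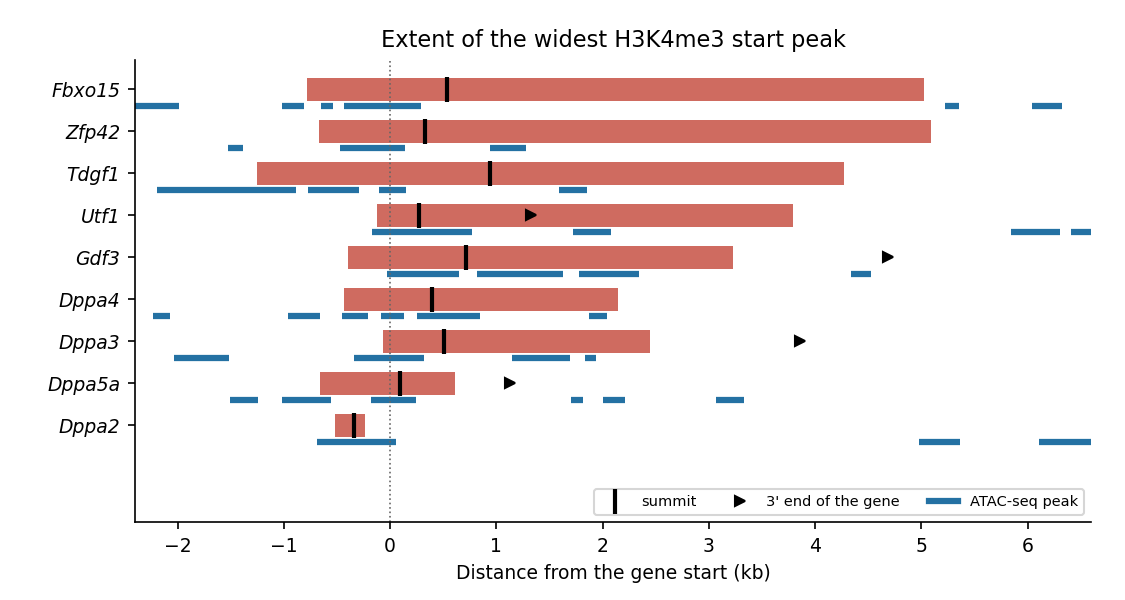
Extent of the widest H3K4me3 start peak (bars), its summit (black tick) and the ATAC-seq peaks (blue) by distance from the gene start in Kb, with the 3′ end of the gene (arrowhead) where it falls in the plotted range. Genes are ordered by width. The bars of 7 genes extend mainly downstream, that of Dppa5a about as far upstream, and that of Dppa2 lies upstream of the start, and the Utf1 bar passes the end of the gene.

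At several of the short genes, H3K4me3 peaks spanned much of the gene. The shares below count every H3K4me3 peak in the gene. Those of Zfp42, Fbxo15 and Dppa2 thus include peaks other than the widest start peak, which for Dppa2 lay outside the gene. Utf1, on the plus strand of chromosome 7 from 139943789 to 139945112, is 1324 bp long and was covered in full by its peak, which reached 3791 bp downstream of the start. The share of the gene covered by H3K4me3 was 72.0% for Zfp42, 68.9% for Gdf3, 65.3% for Tdgf1, 63.3% for Dppa3 and 54.8% for Dppa5a. It was 20.4% for Dppa4, 19.2% for Fbxo15 and 13.9% for Dppa2. The median was 63.3%, against 3.55% over all protein-coding genes, whose median length was 17425 bp against 6556 bp for the 9. The 3.55% also takes in the 7643 genes without a start peak. A share over genes with a start peak, or over genes of like length, is not given here.

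The promoters of Zfp42, Tdgf1 and Utf1 are shown, since these 3 of the 9 genes had a match among the RefSeq promoters used here. They let the DNA at 3 wide H3K4me3 peaks be read. The sequences are of GRCm38.p6, with 250 bases before and 50 after the RefSeq start, and each overlaps the H3K4me3 start peak and an ATAC-seq peak in whole or in part. Capitals mark the octamer ATGCAAAT, the binding motif of Oct4, in Zfp42, the KLF box GGGCGTGG in Tdgf1, and GC boxes GGGCGG in all 3, each searched on both strands. The Zfp42 stretch is chr8:43306960-43307259 on the minus strand, the Tdgf1 stretch chr9:110946109-110946408 on the minus strand, and the Utf1 stretch chr7:139943606-139943905 on the plus strand.
Zfp42: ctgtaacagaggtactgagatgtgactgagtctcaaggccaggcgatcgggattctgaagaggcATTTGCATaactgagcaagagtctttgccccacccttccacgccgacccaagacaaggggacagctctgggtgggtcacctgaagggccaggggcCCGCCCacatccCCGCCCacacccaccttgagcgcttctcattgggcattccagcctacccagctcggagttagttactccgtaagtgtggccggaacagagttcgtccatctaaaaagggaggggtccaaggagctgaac
Tdgf1: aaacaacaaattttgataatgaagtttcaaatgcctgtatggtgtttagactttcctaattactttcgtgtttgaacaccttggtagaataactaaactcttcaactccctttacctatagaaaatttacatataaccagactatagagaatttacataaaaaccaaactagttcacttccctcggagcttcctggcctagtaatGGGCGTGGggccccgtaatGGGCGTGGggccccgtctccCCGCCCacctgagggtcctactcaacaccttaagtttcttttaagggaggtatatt
Utf1: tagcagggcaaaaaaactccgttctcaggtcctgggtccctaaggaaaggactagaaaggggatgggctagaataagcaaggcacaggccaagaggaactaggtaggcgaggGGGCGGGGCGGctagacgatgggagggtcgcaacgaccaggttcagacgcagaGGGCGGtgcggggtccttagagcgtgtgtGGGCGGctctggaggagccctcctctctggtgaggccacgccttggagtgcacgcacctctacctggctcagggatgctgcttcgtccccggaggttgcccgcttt

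Zfp42 held the octamer 186 to 179 bases before its RefSeq start, a motif found in 1.74% of 32851 RefSeq promoters of this length, together with 2 GC boxes. Tdgf1 held 2 KLF boxes, which 0.728% of promoters did, and 1 GC box that ends just before the start. Utf1 held 4 GC boxes, the foremost 2 of which overlap, and 35.7% of promoters held at least 1. The Utf1 stretch had 17 CpG dinucleotides in 300 bases, the Zfp42 stretch 11 and the Tdgf1 stretch 7, which is also the median of all promoters. The KLF and GC boxes were looked for after the sequences had been read, and a match is a description of letters, not of a bound factor. The GENCODE start of Tdgf1 was the same as the RefSeq start, that of Utf1 lay 67 bp upstream of it, and that of Zfp42 29 bp downstream.

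ATAC-seq peaks were next compared with the joined motif of Oct4 and Sox2, with the Sox part CATTGT, 1 free base and the octamer part ATGCAAAT, on either strand. At most 2 mismatches over the 14 set letters were allowed. The windows of the 9 genes held 133 distinct ATAC-seq peaks, of which 3 (2.26%) had a match, against 0.881% of all ATAC-seq peaks. The member peaks had a median width of 293 bp and all peaks one of 261 bp. With so few matches the 2 shares cannot be read as a difference. The 3 stretches are shown with 25 bases on either side, read on the strand of the match (the minus strand in each), and capitals mark the match. They lie between genes near Utf1 and Dppa5a and upstream of Dppa3, at chr7:139945656-139945720, chr9:78359727-78359791 and chr6:122624656-122624720 of GRCm38.
Utf1: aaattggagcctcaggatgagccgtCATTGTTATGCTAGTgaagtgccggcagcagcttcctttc
Dppa5a: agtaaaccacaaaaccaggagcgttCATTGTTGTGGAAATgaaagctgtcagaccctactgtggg
Dppa3: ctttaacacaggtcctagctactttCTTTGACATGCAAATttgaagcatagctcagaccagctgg

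The Utf1 match lay 1892 bp downstream of the start, past the 3′ end of the gene, in a 359-bp ATAC-seq peak inside the wide H3K4me3 peak. An enhancer downstream of Utf1 that depends on Oct4 and Sox2 is known, and whether this stretch belongs to it was not tested. The Dppa3 match lay 1715 bp upstream of the start in a 520-bp ATAC-seq peak without H3K4me3. That peak was also within 1 Kb of the annotated start of Gm26168. The Dppa5a match lay 8411 bp downstream in a 183-bp ATAC-seq peak, again without H3K4me3.

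Dppa2 differed from the other 8 genes at its annotated start. The gene lies on the plus strand of chromosome 16 from 48303908 to 48319723. The GENCODE start of the gene is that of 1 of its 2 transcripts, and no H3K4me3 peak covered it. A peak of 279 bp and fold 3.19 ended 237 bp upstream, and another of 257 bp and fold 3.29 began 682 bp downstream, in an intron. The second transcript starts 6569 bp further in, and that start lay under an H3K4me3 peak of 1944 bp, fold 11.2 and width rank 9212. Both starts lay under an ATAC-seq peak, of 746 bp and 714 bp. The larger H3K4me3 peak of Dppa2 was therefore at the internal start, and the rank given above belongs to the upstream start.

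Dppa4, the partner of Dppa2, lies just upstream on the same strand, from 48283733 to 48294237. The starts of the 2 genes are 20175 bp apart, so their windows shared 4 H3K4me3 peaks and 14 ATAC-seq peaks. The Dppa4 peak covered all 3 of its annotated transcript starts and held ATAC-seq peaks of 248, 221, 600 and 165 bp. The ATAC-seq peaks that lay wholly between the 2 starts numbered 3. The widest ATAC-seq peak at Dppa2, of 1399 bp, lay across its 3′ end without H3K4me3, and 0.299% of the 143747 ATAC-seq peaks away from annotated starts were wider.

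Gdf3 and Dppa3 form the other close pair, on chromosome 6, in the cluster that also holds Nanog. Gdf3 runs on the minus strand from 122605403 to 122610087 and Dppa3 on the plus strand from 122626410 to 122630272, with starts 16323 bp apart that point away from each other. Their windows also shared 4 H3K4me3 and 14 ATAC-seq peaks. No H3K4me3 peak lay wholly between the starts. The Gdf3 peak held 3 ATAC-seq peaks, of which those of 681 and 560 bp overlapped exons and that of 805 bp lay in an intron. Dppa3 had a 661-bp ATAC-seq peak over its start and others of 548 and 107 bp in introns. Beyond its 3′ end, a 306-bp H3K4me3 peak with a fold of 3.55 coincided with a 514-bp ATAC-seq peak 6847 bp from the Dppa3 start. Apobec1, a cytidine deaminase gene whose start is 7643 bp downstream of that of Gdf3, had a 1366-bp peak with a fold of 7.18.

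Dppa5a, on the minus strand of chromosome 9 from 78367052 to 78368177, is the shortest of the genes at 1126 bp. ATAC-seq peaks of 424 and 461 bp lay at its start. Beyond its 3′ end, 2 weak H3K4me3 peaks of 731 and 344 bp had folds of 3.52 and 3.12, and each overlapped an ATAC-seq peak. Upstream, the start of Ooep, a maternal-effect gene of the oocyte and early embryo, lay 10548 bp away under a 2380-bp peak with a fold of 6.31. Ddx43, a helicase gene 27600 bp away, had a 2902-bp peak with a fold of 10.7. Both neighbours thus had wider peaks than Dppa5a, with folds on either side of its 9.74. Gsta2, a glutathione transferase gene, had neither kind of peak at its start.

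Zfp42, on the minus strand of chromosome 8 from 43295063 to 43306980, was the only one of the 9 whose H3K4me3 peaks all lay at its own start or in its own body. Besides the wide start peak, 3 weaker peaks lay in the gene body at 6794, 8495 and 9977 bp from the start, with folds of 3.32, 5.01 and 3.37. The last of them overlapped an exon and the other two lay in an intron. Zfp42 had 13 ATAC-seq peaks in its window, the fewest together with Tdgf1. The widest were of 847 bp, 13579 bp upstream, and of 835 bp, 33 bp past the 3′ end, and 3.30% and 3.50% of the ATAC-seq peaks away from annotated starts were wider.

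Tdgf1, on the minus strand of chromosome 9 from 110939603 to 110946158, had the widest ATAC-seq peak in the windows of the 9 genes. It was 1723 bp wide and began 43 bp past the 3′ end without H3K4me3, at rank 528 of the 179109 ATAC-seq peaks and rank 118 among those away from annotated starts. Another of 1309 bp lay 887 bp upstream of the start, at rank 2766. Upstream, the start of Lrrc2, a leucine-rich repeat gene, lay 5387 bp away with a 536-bp peak whose fold was 2.62. Another annotated Lrrc2 start carried a stronger peak of 1477 bp and fold 18.7, 7281 bp from the Tdgf1 start. The start of Fam240a, 29297 bp downstream, had neither kind of peak.

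Around Utf1, H3K4me3 was found in both neighbouring genes. The upstream gene Kndc1 held 4 peaks inside it, of 522 to 1276 bp, of which the strongest had a fold of 17.8 and lay 28680 bp from the Utf1 start. Downstream, the noncoding gene Gm16201 had a start peak of 1884 bp with a fold of 15.6, beginning 5863 bp from the Utf1 start. Utf1 itself had a single ATAC-seq peak of 940 bp at its start, the widest over a start among the 9 genes. Of the 20 ATAC-seq peaks in its window, 13 lay inside other genes.

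Fbxo15, on chromosome 18 from 84934782 to 84981473, is the longest of the genes at 46692 bp, and its window held 8 H3K4me3 peaks and 25 ATAC-seq peaks. The ATAC-seq peaks at its start were of 726, 211 and 115 bp. A second H3K4me3 peak of 2623 bp lay 15254 bp into the gene, over another annotated Fbxo15 start. It also covered the start of Timm21, a mitochondrial import gene on chromosome 18 that begins inside Fbxo15, 16742 bp from the Fbxo15 start. The fold of this second peak, 29.7, was higher than the 15.6 of the Fbxo15 start peak, though the second peak was narrower. Weak peaks of 413, 480 and 440 bp in the Fbxo15 introns had folds of 3.24, 3.44 and 2.82, and none of them overlapped an ATAC-seq peak.

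Taken over the 9 windows, the 38 distinct H3K4me3 peaks included 19 (50%) that were not within 1 Kb of any annotated start, against 43.2% of the whole list. Of these 19, 14 (73.7%) overlapped an ATAC-seq peak, close to the 76.3% of such peaks in the list. Such peaks were small, with a median of 617 bp and a fold of 3.44, close to the 611 bp and 4.17 of the 14469 of the whole list. At least 1 was found around 7 of the 9 genes, all except Dppa2 and Dppa4, against 48% of all protein-coding genes. For Gdf3 and Dppa3 it was the same 306-bp peak. The 48% also takes in the 7643 genes without a start peak, and the share over genes with one is not given here.

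Open chromatin was dense around these genes. The windows held 1.81 (Zfp42) to 3.29 (Dppa3) ATAC-seq peaks per 10 Kb, against a median of 1.10 over all protein-coding genes. All 9 were above 1.71, the 75th percentile, which by definition 25% of the genes exceeded, and which 32.2% of the genes with an H3K4me3 start peak did. The median of the 9 was 2.34, close to the 2.24 of the 20 pluripotency genes listed below, so the density was not particular to them. It was 1.95 for 12 germ layer and trophoblast regulators, 0.765 for 12 fibroblast genes and 1.11 for 12 genes of differentiated tissues. Gene length was not matched, and the 9 genes are mostly short. The windows of the 2 pairs overlap, so the 9 values are not independent. At the starts themselves the ATAC-seq peaks were not wide, since the widest of each gene had a median of 726 bp, against 883 bp over all genes, and 2 of the 9, Tdgf1 and Utf1, exceeded that.

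An ATAC-seq peak within 1 Kb of the 3′ end, and not at the start, was found for 6 of the 9 genes. These were Dppa2, Dppa5a, Gdf3, Zfp42, Tdgf1 and Utf1. Over all protein-coding genes the share was 25%, and over those with an H3K4me3 start peak it was 30.5%. Gene length and the local density of ATAC-seq peaks were not matched. Dppa5a and Utf1 are 1126 and 1324 bp long, so their 3′ ends lie near their starts. The Utf1 peak lay inside the H3K4me3 start peak. The 94 ATAC-seq peaks of the windows that lay away from annotated starts were otherwise ordinary in width, with 7 (7.45%) in the widest 10% of such peaks in the list.

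The study used 5 Kb bins for its H3K4me3 interaction map of these cells. In such bins, the start bin of each of the 9 genes was bound by H3K4me3. So was that of 99.7% of the genes with a start peak. The windows comprised 118 distinct bins, of which 36 (30.5%) were bound and 82 were not, against 13% bound in the windows of all genes with a start peak. Bins were pooled over windows, so that long genes add more of them. Gene length was not matched, and the 9 genes are mostly short. Of the unbound bins, 49 (59.8%) held an ATAC-seq peak, against 29.1% in the windows of those genes. This share was 100% for the 9 unbound bins of Dppa3, which 0.861% of the genes with a start peak reached, and 50% for the 12 of Zfp42, the lowest of the 9, where the median gene with a start peak had 37.5%. These shares follow the same ATAC-seq peaks as the density above and are no separate result.

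The other genes of pluripotency showed how wide the range is. Of 20 listed genes, among them Pou5f1, Sox2 and Nanog, 15 had an H3K4me3 peak within 1 Kb of the gene start. All 20 had one at some annotated transcript start. Over all protein-coding genes these shares were 65.2% and 68.7%. The start peaks of the 15 listed genes had a median width of 5078 bp and a median fold of 31.0, against 3626 bp and 16.7 for the 9 genes. The listed genes closest in width were Tcl1 for Dppa2 and Dppa5a, Tfcp2l1 for Dppa3 and Dppa4, Nodal for Gdf3, Phc1 for Zfp42 and Fbxo15, Prdm14 for Tdgf1, and Klf5 for Utf1. The Tcl1 peak, of 1492 bp, was still far wider than the 279 bp of Dppa2. The pairs were chosen by width, so a likeness in width is no result. Zfp42 and Phc1, of 5764 and 5874 bp, were also alike in fold, at 24.6 and 25.8. Their −log10 q values were 220 and 436. Gdf3 and Nodal, both ligands of the TGF-beta family, were alike in width, with 3626 and 3790 bp, but their folds were 20.3 and 40.0. Tdgf1 was the higher of its pair, with a fold of 26.4 against 10.0 for Prdm14.

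**Figure D5:**
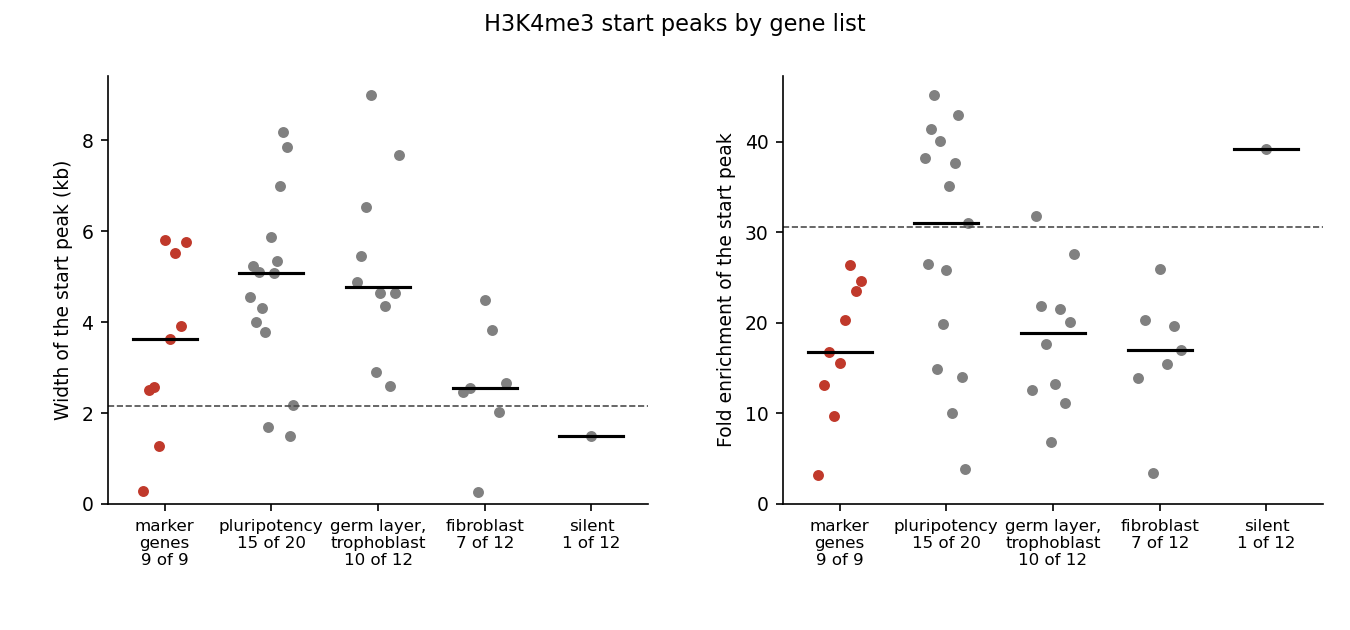
Width in Kb (left) and fold enrichment (right) of the H3K4me3 start peak for the genes of each list that have one, with their number under each name. Points are genes, solid bars list medians and dashed lines the medians of all genes with a start peak. The 9 marker genes have a median fold of 16.7 and the pluripotency list one of 31.0.

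Genes of other cell types were read in the same way. Over all protein-coding genes, 65.2% had a start peak and 68.7% had one at some annotated transcript start. Of 12 regulators of the germ layers and trophoblast, 10 had a start peak, with a median width of 4770 bp and a median fold of 18.8. Many such regulators, though not all, are known to carry H3K4me3 in stem cells without being expressed. Elf5 and Gata4 lacked one at the gene start, and of the 12 genes 11, all but Elf5, had one at some annotated transcript start. The folds of the 9 marker genes, from 3.19 to 26.4 with a median of 16.7, overlapped widely with those of these regulators, from 6.86 to 31.8. Expression was not measured in these files. Of 12 fibroblast genes, 7 had a start peak, with a median of 2553 bp and a fold of 17.0. Among them were Col1a1 (2464 bp, fold 13.9), Col1a2 (2553 bp, fold 20.4), Thy1 (2018 bp, fold 19.6) and Pdgfra (4479 bp, fold 25.9). Prrx1 (3826 bp, fold 15.4), Twist2 (2658 bp, fold 17.0) and Dcn (271 bp, fold 3.39) made up the 7. The other 5, Col3a1, Fap, Lum, Postn and S100a4, had none, and the first 4 of these had no ATAC-seq peak at the start either. The part of feeder cells in the start peaks of the marker genes was not tested. Of 12 genes of liver, muscle, blood and other differentiated tissues, 1 had a start peak, namely Ckm, and that peak did not cover the Ckm start. At some annotated transcript start, 2 of these 12 (Ckm and Krt10) and 7 of the fibroblast genes had a peak.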

How the data were processed

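H3K4me3 ChIP-seq and ATAC-seq of F123 cells were analysed from 2 deposited peak lists, each for 2 replicates. PLAC-seq and input samples were not analysed here. For H3K4me3, the authors ran the ENCODE pipeline for histone marks with its default settings. Its aligner and threshold, and the treatment of castaneus reads, are not given in the sources used here. Its deposited columns hold a fold enrichment (a ratio), −log10 p and q values and a display score. For ATAC-seq, reads were aligned to mm10 with Bowtie 1.1.2, duplicates and mitochondrial reads were removed with SAMtools, and read ends were shifted to the Tn5 cut. The authors then called peaks on the pooled reads with MACS2 2.1.1.20160309, at a p-value cutoff that was not adjusted for multiple testing. They used bedtools 2.27.1 to retain those present in each replicate, and deposited positions only. Weak ATAC-seq peaks can therefore not be told from strong ones.

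Coordinates matched mm10 (GRCm38) chromosome lengths, and genes came from GENCODE M21. A peak was at a start when it shared at least 1 bp with the 1 Kb on either side, and the widest such peak was taken. Windows were the gene and 30 Kb on either side. No test was possible, so counts stand beside the share of all genes. The genes and lists were chosen with earlier results of these data known. Other genes named were those with a start near a peak in a window, the pluripotency gene closest in width to each, and listed genes that depart from their list. Overlaps were checked with bedtools 2.31.1 and tested on simulated data, in Python 3.11.15 with numpy 2.4.6, pandas 2.3.3 and matplotlib 3.10.9. Other windows, overlaps and thresholds were tried as alternatives.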

Additional observations from a re-analysis of the deposited data

How the results depend on the processing

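No paired analysis was possible because the replicates of an assay share a single peak list, and replicates could not be left out for the same reason. The 9 of 9 genes with an H3K4me3 peak at the start became 3 (Dppa2, Dppa4 and Dppa5a) when the midpoint of the peak had to lie within 1 Kb of the start, against 58.9% of all genes, since a peak that runs far downstream has its midpoint outside. Under an alternative chosen after seeing the data, that the peak must cover the gene start itself, it was 8, without Dppa2. The 133 ATAC-seq peaks around the genes became 84 with 10 Kb on either side and 75 with the widest 50% of the list, which holds fewer peaks by construction. The 3 ATAC-seq peaks with an octamer-Sox match became 0 with at most 1 mismatch and 13 with at most 3, against 0.0946% and 5.35% of all ATAC-seq peaks. The median width of 3626 bp did not move under the 3 other settings tried for it. Depth is unknown, and a peak's width also depends on depth and on the caller's threshold.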
